A study of Mus musculus with 8 samples.

Results

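The genes described here are 8 genes of the fetal lung, measured by mRNA sequencing in whole spines of mouse embryos at E18.5. They are Sftpc, Sftpb, Sftpa1, Sftpd, Scgb1a1, Nkx2-1, Lamp3 and Ager, chosen by name as surfactant, airway and alveolar genes, and they make up 8 of the 27179 genes in the count table. The study set Pax1-Enh knockout (KO) spines against wild type (WT) spines in each sex. Its 8 libraries were 2 each of male KO, male WT, female KO and female WT. For the Pax1-Enh allele the deleted coordinates, and for the embryos the strain and the litter, were not stated in the sources at hand. The libraries of a group are numbered 1 and 2, with no word on whether each came from its own embryo. The p-values therefore cover only how far these samples spread, and that spread may be technical. Frozen spines were crushed whole, so each library mixes every tissue that was taken with the spine.

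The epithelium of the mammalian lung divides into airways and alveoli. Alveolar type II cells make surfactant, a film of lipid and protein that keeps the air spaces from collapsing at the first breath, and its production climbs late in gestation. Alveolar type I cells are thin and form the surface for gas exchange, while club cells line the smaller airways and secrete secretoglobins. The transcription factor Nkx2-1 is needed to form the lung epithelium and drives surfactant genes together with forkhead factors, and it also acts in the thyroid and the forebrain.

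Library totals ran from 59722279 to 67575728 counts in KO and from 35181518 to 48021848 counts in WT, so every KO library was deeper than every WT library. Levels are given as CPM, counts scaled to library sizes that edgeR adjusts with TMM factors. Genes of the mitochondrial genome took 4.56% and 15.6% of counts in male KO, 18.3% and 20.9% in male WT, 13.6% and 4.66% in female KO, and 5.55% and 7.27% in female WT. Pax1 itself had 28.3 and 18.9 CPM in male KO against 20.4 and 17.0 CPM in male WT. In females it came to 30.4 and 19.9 CPM in KO against 27.0 and 18.6 CPM in WT. Its KO and WT libraries overlapped in both sexes, so this count does not check the genotype labels. The counts of the libraries of each group differed by more than sampling noise, with a chi-square per degree of freedom of 112 to 557.

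All 8 lung genes were detected, at low levels, and their counts gathered in few libraries. Summed over the 8 genes, the level was 2.07 and 2.43 CPM in male KO, against 32.8 and 6.09 CPM in male WT. In females it was 2.54 and 5.37 CPM in KO against 1.55 and 1.44 CPM in WT. Male WT 1 stood far above every other library, and female KO 2 was the highest of the female libraries. Much of that sum was Sftpc, with 71.9% of the counts in male WT 1 and 27.3% in male WT 2. Without Sftpc the other 7 genes summed to 1.67 and 1.60 CPM in male KO against 9.22 and 4.43 CPM in male WT, and to 1.64 and 2.29 CPM in female KO against 1.39 and 1.25 CPM in female WT. The 8 genes together held 1330 of the counts of male WT 1, and 52 to 377 in each of the other libraries. Male WT 1 was the highest library for 7 of the 8 genes, where it was the highest for 9.11% of the 18104 genes tested. Scgb1a1 was the exception, with its highest level in male WT 2. Of the 7, Sftpa1, Sftpd, Nkx2-1 and Lamp3 passed the filter on low counts only through few libraries, male WT 1 among them. The count of 7 is therefore a description. In bulk tissue, fewer cells of a type and less RNA per cell cannot be told apart. The counts do not say whether lung tissue or another tissue gave these reads, and that was not tested.

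**Figure D1:**
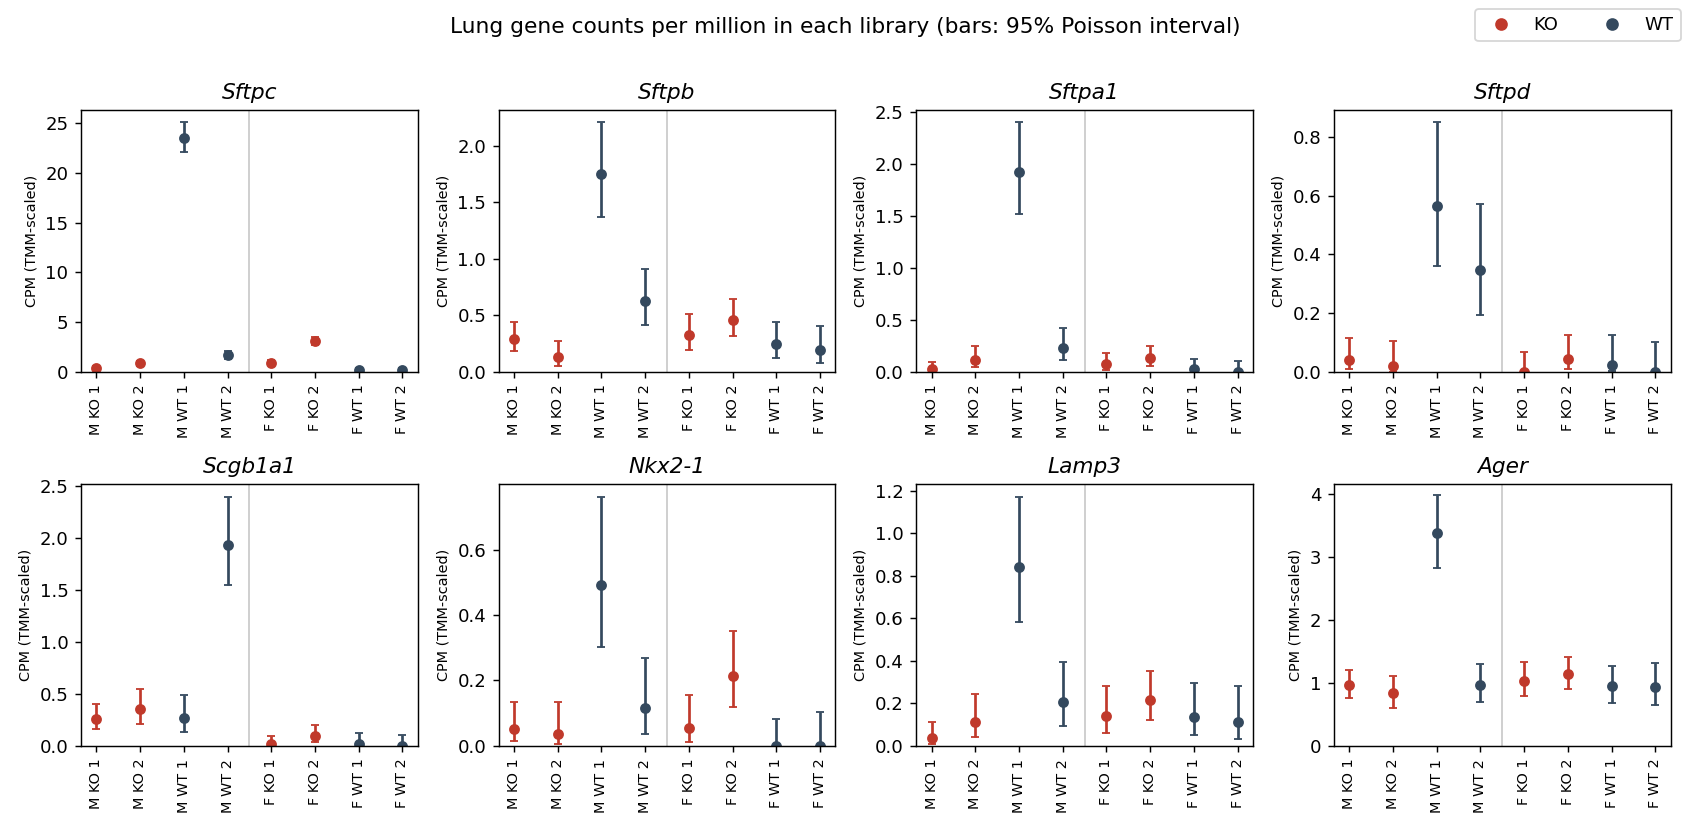
Level of each lung gene in each library, in CPM on a linear axis that starts at 0 and differs between panels, with males (M) left and females (F) right of the grey line. Points are single libraries, KO in red and WT in dark blue, and bars are exact Poisson intervals for counting error only. Male WT 1 is the highest library in 7 panels and male WT 2 in the panel of Scgb1a1.

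Levels between genes can be compared only per length. Divided by the longest annotated transcript, the mean over the 8 libraries was 4.86 CPM per kilobase for Sftpc, 0.778 for Scgb1a1, 0.680 for Ager and 0.324 for Sftpb. It was 0.110 CPM per kilobase for Sftpa1, 0.0716 for Sftpd, 0.0670 for Lamp3 and 0.0429 for Nkx2-1. By the median over libraries Sftpc was again highest at 1.09 CPM per kilobase, and Ager followed at 0.516, ahead of Scgb1a1 at 0.379 and Sftpb at 0.197. For Sftpc, Scgb1a1 and Sftpa1 the range over libraries was far wider than the gaps between neighbours in that order.

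Sftpc (chr14:70520941-70524081, GRCm38.p6) encodes surfactant protein C, a small hydrophobic peptide made almost only by alveolar type II cells. It had 30 and 45 counts in male KO against 956 and 72 counts in male WT. In females it had 50 and 216 counts in KO against 7 and 7 counts in WT. KO lay below WT in males and above WT in females, without overlap in either sex. Of its 1383 counts, 69.1% were in male WT 1, which at 23.6 CPM was 7.67 times the next library, female KO 2, at 3.07 CPM. Within the male WT group alone, male WT 1 was 14.2 times male WT 2 (95% counting interval 11.2 to 18.3). Within female KO, replicate 2 was 3.44 times replicate 1 (2.52 to 4.78). Intervals of this kind cover counting error only.

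Sftpb (chr6:72304610-72314373) encodes surfactant protein B, which packs lipid into the lamellar bodies of type II cells and is needed to breathe at birth. It had 22 and 7 counts in male KO against 71 and 27 counts in male WT, and 18 and 32 counts in female KO against 11 and 7 counts in female WT. On the CPM scale the groups did not overlap in either sex, at 0.288 and 0.130 in male KO against 1.75 and 0.623 in male WT, and 0.321 and 0.456 in female KO against 0.248 and 0.194 in female WT. The male WT libraries were the highest pair, and male WT 1 was 2.81 times male WT 2 (1.78 to 4.56). This gap was smaller than the 14.2 times of Sftpc, and the intervals of the 2 ratios did not meet.

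Sftpa1 (chr14:41131788-41136373) encodes surfactant protein A, a collagen-like lectin of airway defence. It had 2 and 6 counts in male KO against 78 and 10 counts in male WT, and 4 and 9 counts in female KO against 1 and 0 counts in female WT. On the CPM scale KO lay below WT in males and above WT in females, and male WT 1 alone held 70.9% of its 110 counts. Sftpd (chr14:41172212-41185198), the gene of the related lectin surfactant protein D, had 3 and 1 counts in male KO against 23 and 15 counts in male WT. In females it had 0 and 3 counts in KO against 1 and 0 counts in WT, so both female groups were at or below 3 counts and overlapped, while the male groups did not. Here the 2 male WT libraries were close, with a ratio of 1.64 (0.819 to 3.38), unlike the 8.34 (4.30 to 18.1) of Sftpa1.

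The promoters of Sftpb and Sftpa1, 250 bases before to 50 after the annotated start, are shown because both surfactant genes were highest in male WT 1 and Nkx2-1 is known to bind such promoters. The sequences are from RefSeq on GRCm38.p6, and the promoter table used here matched 5 of the 8 genes (Sftpb, Sftpa1, Nkx2-1, Lamp3 and Ager). Both are on the plus strand, at chr6:72304360-72304659 for Sftpb and chr14:41131538-41131837 for Sftpa1, and capitals mark the motif matches on either strand.
Sftpb: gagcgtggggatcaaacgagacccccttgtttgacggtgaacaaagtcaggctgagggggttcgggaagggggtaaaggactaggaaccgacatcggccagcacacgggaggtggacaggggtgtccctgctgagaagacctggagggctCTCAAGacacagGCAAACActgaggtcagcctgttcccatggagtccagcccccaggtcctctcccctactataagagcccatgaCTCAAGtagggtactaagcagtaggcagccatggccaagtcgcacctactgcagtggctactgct
Sftpa1: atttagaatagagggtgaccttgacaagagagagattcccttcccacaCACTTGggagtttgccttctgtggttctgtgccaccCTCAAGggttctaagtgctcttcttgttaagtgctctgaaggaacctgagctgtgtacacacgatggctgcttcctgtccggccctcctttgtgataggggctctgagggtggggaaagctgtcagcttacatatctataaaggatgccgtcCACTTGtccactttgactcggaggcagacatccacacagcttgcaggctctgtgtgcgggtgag
The motifs searched, on both strands, were CTCAAG and CAAGTG, which are cores of Nkx2-1 sites, and TGTTTGC and TGTTTAC, which are cores of forkhead sites. CTCAAG and CAAGTG share the letters CAAG and can overlap. In the Sftpb promoter CTCAAG began at -100 and -15 from the start site, and TGTTTGC lay on the minus strand at -88, as GCAAACA in the strand shown. In the Sftpa1 promoter CTCAAG began at -166 and CAAGTG lay on the minus strand at -202 and -14, as CACTTG in the strand shown. The Lamp3 promoter held TGTTTAC at -92, and none of the 4 motifs was in the windows of Nkx2-1 and Ager. Of 32851 promoters of this length, 15.9% held CTCAAG, 13.6% CAAGTG, 5.07% TGTTTGC and 3.65% TGTTTAC, so a match is a description and not a site.

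Nkx2-1 (chr12:56531935-56536908) is the transcription factor of the group. It had 4 and 2 counts in male KO against 20 and 5 counts in male WT, and 3 and 15 counts in female KO against 0 and 0 counts in female WT. KO lay below WT in males and above WT in females. Nkx2-1 was highest in male WT 1 and next in female KO 2, the same first and second libraries as for Sftpc, Lamp3 and Ager. Female KO 2 held 15 of the 18 female counts. The pooled female KO level, 0.143 CPM, was 3.83 times a floor of 3 counts over both female WT libraries, 0.0372 CPM, and the counting interval of its ratio to WT began at 2.80. Female KO 1 alone, with 3 counts, did not exceed a count of that size. A thyroid list of 9 genes, in which Nkx2-1 is not counted, summed to 13.4 to 16.1 CPM over the 8 libraries. That list was 16.1 and 13.6 CPM in male KO against 13.4 and 15.7 CPM in male WT. The part of thyroid in the Nkx2-1 values was not tested.

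Lamp3 (chr16:19653381-19706365) encodes a membrane protein of lamellar bodies and of mature dendritic cells. It had 3 and 6 counts in male KO against 34 and 9 counts in male WT, and 8 and 15 counts in female KO against 6 and 4 counts in female WT. Male WT 1 was 4.04 times male WT 2 (1.90 to 9.57), and on the CPM scale the groups of each sex did not overlap. The dendritic cell list summed to 308 and 163 CPM in male KO against 225 and 200.3 CPM in male WT. Only 4 of its 8 genes passed the filter on low counts, and the part of dendritic cells in the Lamp3 values was not tested.

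Ager (chr17:34597460-34600937) encodes the receptor for advanced glycation end products and marks alveolar type I cells. It had 74 and 45 counts in male KO against 137 and 42 counts in male WT, and 58 and 80 counts in female KO against 42 and 34 counts in female WT. Outside male WT 1, at 3.38 CPM, the other 7 libraries lay between 0.836 and 1.14 CPM, and its lowest library still held 34 counts, where each of the other 7 genes had a library with 7 counts or fewer. Male WT 1 was 3.49 times male WT 2 (2.45 to 5.05). In males the 0.967 CPM of KO 1 and the 0.969 CPM of WT 2 differed by less than counting error, and the male groups overlapped when CPM was taken on raw totals, on relative log expression factors or without mitochondrial genes. Ager lies 60 bases from Pbx2. The annotation and strand setting of the counting were not given, so how reads near both genes were assigned is not known.

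Scgb1a1 (chr19:9083642-9087956) encodes the club cell secretory protein. It had 20 and 19 counts in male KO against 11 and 84 counts in male WT, and 1 and 7 counts in female KO against 1 and 0 counts in female WT. The male groups overlapped, since male WT 1 was level with both KO libraries and male WT 2 was above them, and the female groups overlapped too. Male WT 1 was 0.140 times male WT 2 (0.0673 to 0.263), the opposite of Sftpc at 14.2 times. Scgb1a1 made up 40.0% and 29.7% of the summed Scgb1a1 and Sftpc counts in male KO. In male WT the share was 1.14% (exact Clopper-Pearson 0.569 to 2.03) in replicate 1 and 53.8% (45.7 to 61.8) in replicate 2. Female shares were 1.96% and 3.14% in KO against 12.5% and 0% in WT, where the totals were only 8 and 7 counts and the interval of the last reached 41.0%.

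Scgb3a2, a secretoglobin of the upper airway and club cells, followed the same split with more counts. It had 148 and 26 counts in male KO against 295 and 3009 counts in male WT, and 8 and 103 counts in female KO against 50 and 2 counts in female WT. Male WT 2 was its highest library by far, and male WT 1 was 0.105 times male WT 2 (0.0927 to 0.118). Its share of the summed Scgb3a2 and Sftpc counts was 23.6% in male WT 1 and 97.7% in male WT 2. Slc34a2, the phosphate transporter of type II cells, and Cxcl15, a chemokine also called lungkine, went the way of Sftpc, at 10.5 times (5.80 to 20.9) and 8.04 times (5.08 to 13.4) between the same libraries. Sftpc and these 2 type II genes thus peaked in another library of the group than Scgb1a1 and Scgb3a2. Most genes of the wider alveolar lists peaked in neither: male WT 1 was the highest library for 3 of 13 other type II genes and 0 of 11 other type I genes, and male WT 2 for 4 of 9 other club and secretory genes.

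**Figure D2:**
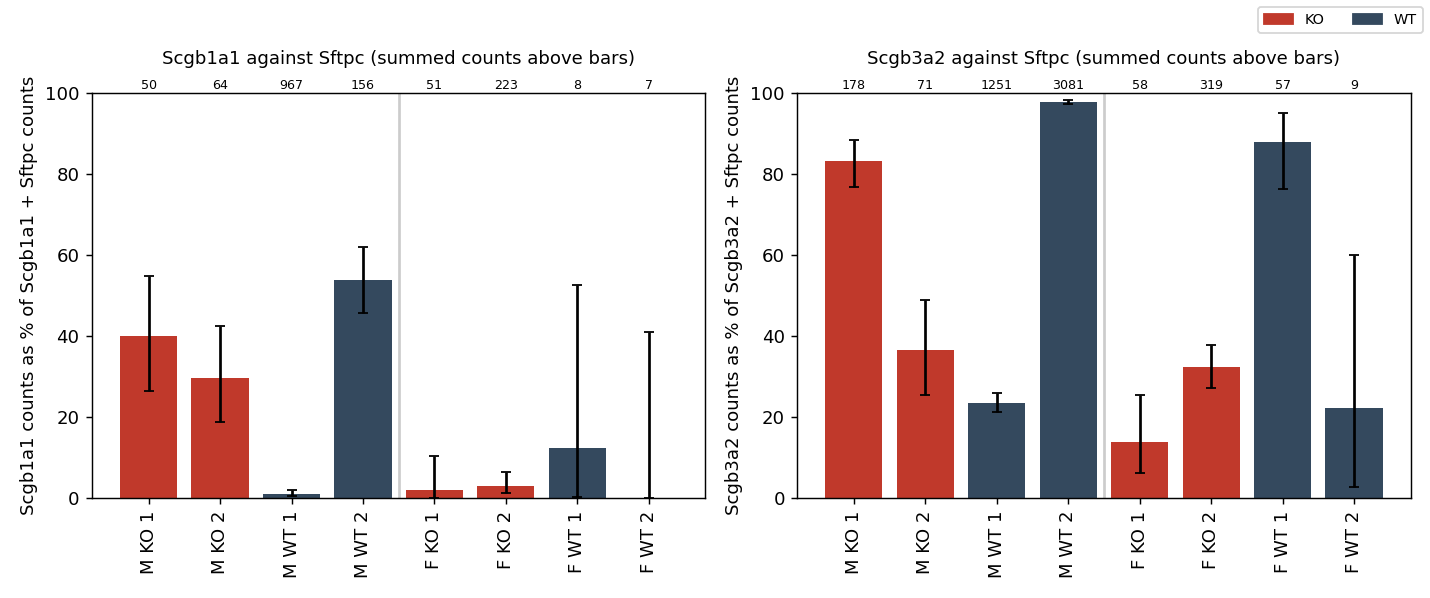
Share of Scgb1a1 (left) and Scgb3a2 (right) in the counts summed with Sftpc, in percent, for each library, KO in red and WT in dark blue, with exact 95% intervals and the summed counts above each bar. Between the male WT libraries the Scgb1a1 share is 1.14% and 53.8%, and the Scgb3a2 share is 23.6% and 97.7%.

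In males, all 8 lung genes were lower in KO than in WT, and none passed edgeR's quasi-likelihood test after adjustment. That test called 0 of 18104 genes (0%) in this comparison, and 2684 had an unadjusted p under 0.05. In the KO libraries 7 of the 8 genes lay below both WT libraries, all but Scgb1a1, where 23.9% of tested genes did so. The count was 6, without Ager, on raw totals, on relative log expression factors or with mitochondrial genes, which took more of the counts in male WT, left out. Sftpa1 and Sftpd passed the filter on low counts through the male WT libraries alone, Nkx2-1 through male WT 1 and female KO 2, and Lamp3 through these and male WT 2. These 4 genes were thus tested only because of libraries where they are high, so the counts and medians given for the 8 genes are descriptions and support no difference. The log2 fold change in Sftpc was -4.38 (SE 1.14, edgeR adjusted p = 0.239), in Sftpa1 -4.01 (SE 1.09) and in Sftpd -3.81 (SE 0.89). It was -2.82 in Lamp3, -2.67 in Nkx2-1, -2.46 in Sftpb, -1.85 in Scgb1a1 and -1.26 in Ager. The adjusted p of the 8 genes ran from 0.232 to 0.361 in edgeR. Unadjusted p was under 0.05 and the change negative for 7 of them, as for 7.29% of tested genes.

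DESeq2, which shares spread between genes differently, called 481 genes in males, and 0.812% of tested genes were called lower. Its calls held 3 of the 8 genes, all lower: Sftpa1 (adjusted p = 0.0289), Sftpc (0.0372) and Sftpb (0.0428). Sftpa1 entered that test through the male WT libraries alone. The 8 genes were chosen with earlier results of these data known, so their calls beside the 0.812% are a description. Over all alternatives run, the adjusted p ran from 0.0289 to 0.679 for Sftpa1, from 0.0372 to 0.546 for Sftpc and from 0.0428 to 0.712 for Sftpb. Without male WT 1, DESeq2 called 0 of the 8. Sftpc was then at -1.41 (adjusted p = 0.440), and Sftpa1 and Sftpb were given no adjusted p. Without female KO 2, a library of neither male group, it called Sftpc alone. In edgeR without male WT 1, Sftpc was at -1.44, Sftpa1 at -1.80 and Ager at -0.10, while Sftpd stayed at -3.42. The median log2 fold change of the 8 genes was -2.74 against -0.06 over all tested genes, and -1.52 without male WT 1.

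In females, the 8 lung genes had positive fitted changes, and again none passed edgeR's test, which called 0 genes (0%) with 1679 at an unadjusted p under 0.05. KO lay above both WT libraries for 6 genes, all but Sftpd and Scgb1a1, where 25.9% of tested genes did so, and on raw totals for 4 genes, without Lamp3 and Ager. Sftpc had a log2 fold change of 3.50 (SE 1.26, edgeR adjusted p = 0.532). Sftpb was at 0.81 (SE 0.67), Lamp3 at 0.53 (SE 0.84) and Ager at 0.20 (SE 0.55), each smaller than 2 SE. Where WT had 1 count in all, the ratio of summed CPM was 8.29 (counting interval 1.25 to 352) for Sftpa1 and 5.10 (0.684 to 226) for Scgb1a1. Unadjusted p was under 0.05 for Sftpc and Nkx2-1, both higher, as for 4.53% of tested genes. Nkx2-1 passed the filter on low counts only through male WT 1 and female KO 2, where it is high. This count and that of the 6 genes above are thus descriptions. The median of the 8 fitted changes was 1.46, or 1.37 with Nkx2-1 at 3.83 times the floor, against 0.03 over all tested genes. It moved with single libraries, to 0.50 without female KO 2, where 1 change was negative and 0 of the 8 had an unadjusted p under 0.05, to 2.21 without female KO 1 and to 3.40 without female WT 1. DESeq2 called 144 genes (0.795%) and none of the 8, of which Sftpd and Nkx2-1 were given no adjusted p. With male WT 1 left out it called Sftpc, at 3.49 (adjusted p = 0.00398), and with female KO 2 left out it called none. The adjusted p of Sftpc ran from 0.00398 to 0.996 over all alternatives run.

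**Figure D3:**
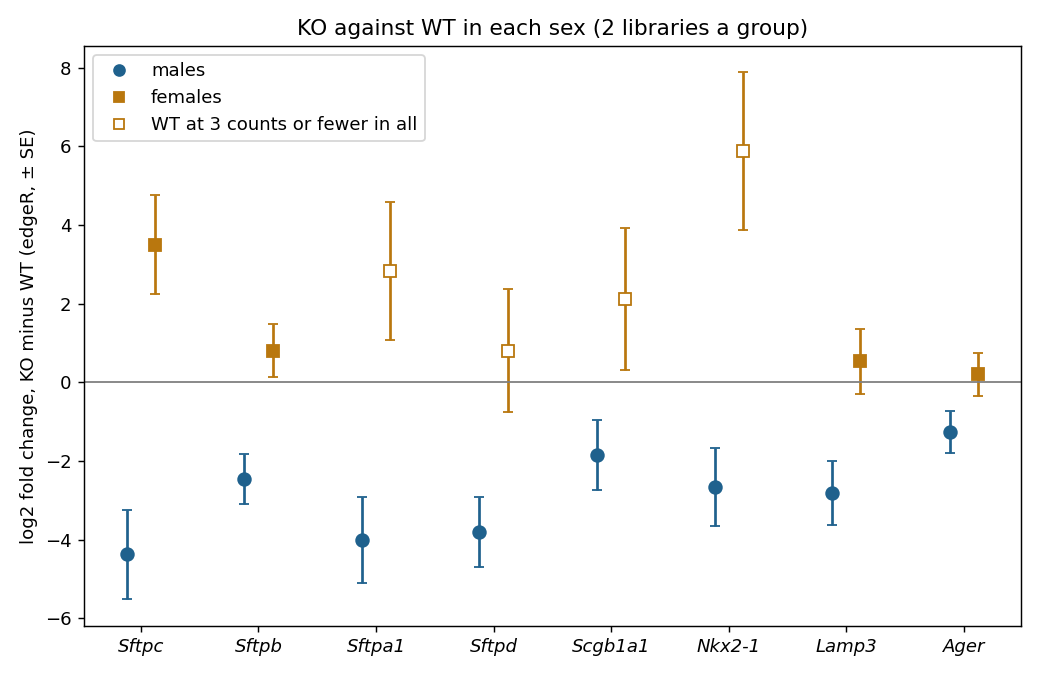
Log2 fold change of KO minus WT from edgeR for each lung gene, males as blue circles and females as orange squares, with bars of 1 SE and 2 libraries a group. Open squares mark genes with 3 or fewer counts over both female WT libraries, whose fitted values depend on the prior count. Male values run from -4.38 to -1.26.

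The test of the difference between the sexes, the female KO effect minus the male one, was positive for all 8 genes. In Sftpc it was 7.87 (SE 1.69), in Sftpa1 6.83 (SE 1.98), in Lamp3 3.35 (SE 1.17), in Sftpb 3.27 (SE 0.92) and in Ager 1.47 (SE 0.77) on the log2 scale. The fitted 8.54 in Nkx2-1 (SE 2.17) depends on the prior count, since female WT had 0 counts. None passed edgeR's adjusted threshold (adjusted p 0.243 to 0.353), and edgeR called 0 genes (0%), with 3031 at an unadjusted p under 0.05. At an unadjusted p under 0.05, 6 of the 8 were higher, as were 9.61% of tested genes. Among these 6, Sftpa1, Sftpd, Nkx2-1 and Lamp3 passed the filter only through male WT libraries or female KO 2, where they are high. That count is therefore a description. DESeq2 called 362 genes and, among the 8, Sftpc (adjusted p = 0.00821) and Sftpa1 (0.0495), where 1.09% of tested genes were called in that direction. Sftpa1 was in the test through the male WT libraries alone, where it is high. The 8 genes were chosen with earlier results known, so these calls beside the 1.09% are a description. DESeq2 gave Sftpd and Nkx2-1 no adjusted p. Over all alternatives run, the adjusted p ran from 0.00433 to 0.618 for Sftpc and from 0.0495 to 0.655 for Sftpa1. By DESeq2, Sftpc was called without male WT 1, at 4.90, and not without female KO 2, at 6.66 (adjusted p = 0.0709), and Sftpa1 was given no adjusted p in either. On the TMM scale, groups of both sexes were free of overlap in opposite directions for 6 genes, Sftpc, Sftpb, Sftpa1, Nkx2-1, Lamp3 and Ager, and for 8.15% of tested genes. The count was 5, without Ager, on relative log expression factors or without mitochondrial genes, and 4, without Lamp3 too, on raw totals. Sftpa1, Nkx2-1 and Lamp3 passed the filter only through libraries that are high in this pattern, so for them it is a description.

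Over both sexes no lung gene separated the genotypes. None of the 8 lay below every WT library in every KO library, where 1.63% of tested genes did so, and none lay above, where 1.68% did. The log2 fold change was -0.84 in Sftpc (SE 2.23, edgeR adjusted p = 0.990) and -2.60 in Sftpd (SE 0.97, adjusted p = 0.695). edgeR called 0 genes (0%) with 1237 at an unadjusted p under 0.05, among them Sftpd as the only one of the 8, in a direction shared by 3.99% of tested genes. DESeq2 called 141 genes (0.779%) and none of the 8. For Sftpc the sign turned on leaving out any of 3 male libraries, to 1.16 without male KO 1, 1.26 without male KO 2 and 1.09 without male WT 1.

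Among 16881 tested genes that average at least 0.3 CPM, those whose centred log2 profile over the 8 libraries lay nearest to Sftpc were Slc34a2 (root-mean-square difference 0.915), Cxcl15 (0.928) and Lyz1 (1.20). Lyz1 encodes a lysozyme. Then came Cyp4b1-ps2, Tnni3, a troponin of heart muscle, Tma7, Fabp1, a fatty acid carrier of liver and gut, and Rgn, at 1.32 to 1.47, with 2 gene models of no proper name among the 10. Of the 8 lung genes, Sftpa1 was nearest at 0.709, then Nkx2-1 at 0.960, Sftpb at 1.35, Sftpd at 1.36, Lamp3 at 1.38 and Ager at 1.64. Scgb1a1 was at 2.07, with 6614 genes nearer. These points share libraries and depth, and likeness over 8 libraries is a description.

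Other lung lists had few calls. Over all 18104 tested genes DESeq2 called 0.812% lower and 334 genes higher in males. It called 0.795% in either direction in females and 0.779% over both sexes. The lists were chosen with earlier results known, so calls in them are a description. Of 13 tested genes of the type II list, DESeq2 called Etv5 higher and Cxcl15 lower in male KO, at 0.95 and -3.33, and Cebpa lower in female KO, at -3.39. edgeR called 0 of them. For the sex difference DESeq2 called 2 of the 13, Slc34a2 at 4.71 and Cxcl15 at 4.82, both higher. In that comparison it called 1.09% of tested genes higher and 164 genes lower. Of the 13 type II genes, 9 had a negative fitted sex difference in edgeR and 4 a positive one. Most counts of that list came from genes that many tissues use. The 4 with the highest mean level were Lyz2, a macrophage lysozyme, Cebpa, Abca3 and Lamp5, and Cebpa had 706 and 794 counts in female KO against 2527 and 6894 in female WT. The type I list of 11 genes summed to 698 and 949 CPM in male KO against 848 and 711 CPM in male WT, led by Cav1, which endothelium and fat also make, and DESeq2 called Gprc5a higher in male KO, at 1.45. Of 9 tested club and secretory genes, edgeR and DESeq2 called 0 in males and in females, and 6 had a negative change in each sex. Over both sexes DESeq2 called Aldh1a7, an aldehyde dehydrogenase, lower in KO, at -1.10 (adjusted p = 0.0168), where edgeR's adjusted p was 0.510. It likewise called Cebpa of the type II list, at -2.29, and Car4 of the capillary list, at -2.26, lower over both sexes, and Prx lower for the sex difference, at -1.69. Of 12 lung epithelial transcription factors DESeq2 called Gata6 lower in males, at -1.37, and edgeR 0, and 10 ciliated cell genes had 0 calls by either. Among the 8 airway basal and neuroendocrine genes DESeq2 called Trp63 higher in male KO, at 1.34, and among the 8 lung capillary genes Prx higher in male KO, at 1.42, and Car4 lower in female KO, at -2.60, where edgeR called 0. For 8 general epithelial genes female WT 1 was the highest library.

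Markers of other organs differed between libraries in patterns of their own. A liver list of 10 genes summed to 1443 and 153 CPM in male KO against 1380 and 1073 CPM in male WT. An adrenal list of 7 genes was 8.33 and 11.5 CPM in male KO against 9.20 and 458 CPM in male WT. In females it came to 5.70 and 444 CPM in KO against 223 and 6.32 CPM in WT. The adipocyte list was 244 and 465 CPM in male KO against 4664 and 764 CPM in male WT. In females it came to 435 and 221 CPM in KO against 738 and 4144 CPM in WT. Male WT 1, the library with the most surfactant gene counts, was thus also high in fat genes, and male WT 2, with the most Scgb1a1, was high in adrenal genes. The pancreas list was at 2111 CPM in female WT 1 and at most 12.5 CPM elsewhere, with no lung gene high there. The part of these tissues in the lung gene values was not tested.

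Hox genes, whose expression marks position along the trunk, also moved with the male comparison. Groups 4 and 5 summed to 37.0 and 32.4 CPM in male KO against 80.2 and 104 CPM in male WT, and to 47.0 and 48.2 CPM in female KO against 61.6 and 70.6 CPM in female WT. Groups 11 to 13 summed to 23.6 and 17.3 CPM in male KO against 4.24 and 8.19 CPM in male WT, and to 17.1 and 10.4 CPM in female KO against 14.1 and 14.2 CPM in female WT. The male WT libraries were thus high in the front groups and low in the rear ones. In male KO, DESeq2 called 4 of 7 genes of groups 4 and 5, 4 of 8 of groups 6 to 8 and 1 of 7 of groups 9 and 10 lower. It called 2 of 8 tested genes of groups 11 to 13 higher, and edgeR called 0 in any of these lists. Over all 18104 tested genes DESeq2 called 0.812% lower and 334 genes higher in this comparison. The lists were chosen with earlier results known, so these calls are a description. In females DESeq2 called Hoxa4 and Hoxb13 lower, as it did 120 of the 18104 tested genes, and edgeR 0. Female WT was also higher than female KO in groups 4 and 5. In females the lung genes had positive fitted changes, on few WT counts apart from Ager. The part of these Hox differences in the lung gene values was not tested.

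**Figure D4:**
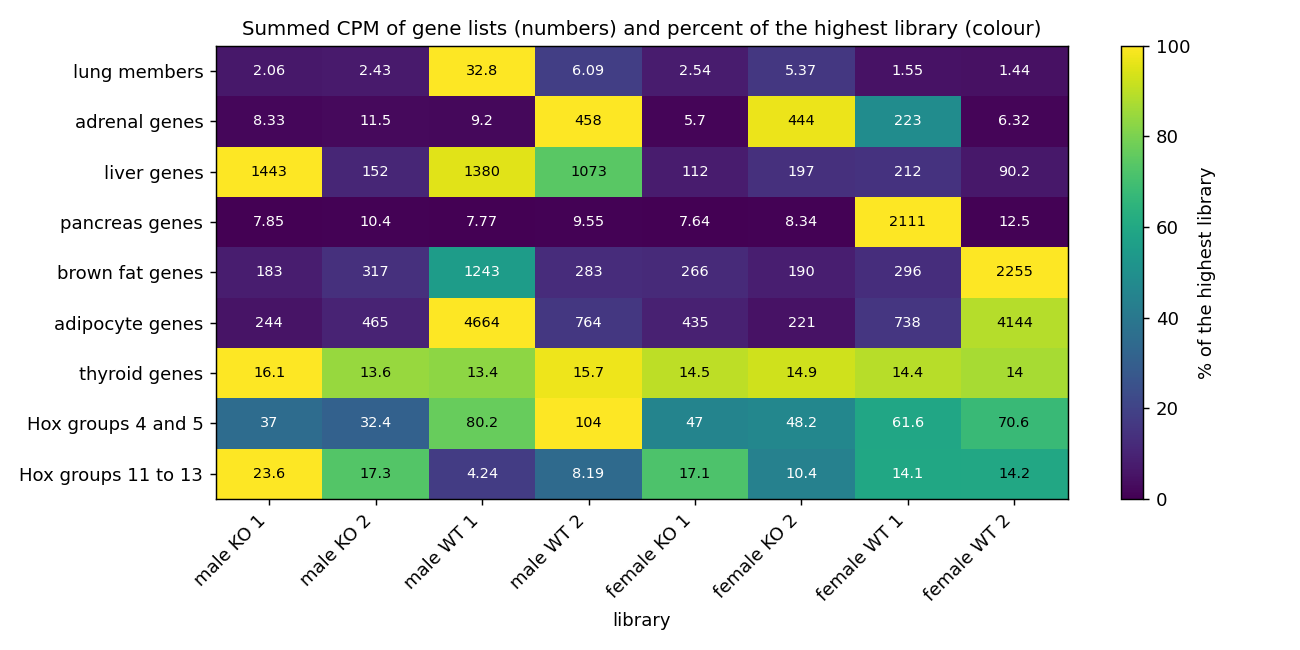
Summed CPM of the 8 lung genes and of gene lists for other organs and positions, one row a list and one column a library, with the sum printed and the colour as percent of the highest library of that row. The lung row peaks in male WT 1 at 32.8 CPM, the adrenal row in male WT 2 at 458 and female KO 2 at 444, and the pancreas row in female WT 1 at 2111.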

How the data were processed

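The authors deposited raw, whole-number counts by gene in 1 table covering all 8 libraries. HISAT2, featureCounts and mm10 are named in the submitters' processing notes; their annotation and strand setting were not stated. Gene IDs took symbols from RefSeq (GRCm38.p6) for 25275 genes and from GENCODE release M21 for 18. Low genes were removed with filterByExpr (minimum count 10, 18104 kept); the rest were scaled by TMM and fitted with edgeR 4.0.16 (R 4.3.3) by a quasi-likelihood F test with 4 group means. Over both sexes the fit had sex and genotype as terms. Changes are KO minus WT, tests are two-sided, and p-values are Benjamini-Hochberg adjusted with a threshold of 0.05. The adjustment was over all 18104 genes in the main edgeR fit, while DESeq2 left some low genes without an adjusted p. The SE is the change divided by the square root of F. DESeq2 1.42.0, limma voom 3.58.1, other scalings and filters, thinning, a replicate block and leaving out libraries were alternatives. The method was tested on simulated counts with changes planted in male KO and an equal spread for every gene. Tissue differences between libraries were not simulated, so that test does not check the calls here. Intervals are 95% and cover counting error only. Every member and up to 4 genes a list by mean CPM are named, with the 10 genes nearest to Sftpc; Scgb3a2, Slc34a2 and Cxcl15 in the library ratios, and other list genes named for a DESeq2 call, were chosen after their values were seen. The members and lists were chosen with earlier results of these data known.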

Additional observations from a re-analysis of the deposited data

Results flagged for a closer look

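In 6 of the 16 groups formed by a lung gene and a genotype over both sexes (4 libraries each), 1 library stood apart by Dixon's criterion, the gap to its neighbour as a share of the group's range, given below. Chance flags about 1 in 20 groups where these are independent. Here the groups mix the sexes, share libraries and hold low counts, so that rate is no measure for the 6. Sftpa1, Nkx2-1 and Lamp3 also passed the filter on low counts only through few libraries where they are high. The library flagged for each of these genes was among them, so the count is a description. In WT the library was male WT 1 for Ager (0.989), Sftpc (0.936), Sftpa1 (0.880) and Lamp3 (0.867), and male WT 2 for Scgb1a1 (0.860). In KO it was female KO 2 for Nkx2-1 (0.907).

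KO lay below WT in males and above WT in females, without overlap, for 6 genes on the TMM scale and 8.15% of tested genes. The count was 5 on relative log expression factors or without mitochondrial genes, which drop Ager. It was 4 on raw totals, which drop Lamp3 too. Sftpa1, Nkx2-1 and Lamp3 passed the filter on low counts only through libraries high in this pattern. The difference between the sexes on the log2 scale was 7.87 for Sftpc, 6.83 for Sftpa1, 3.35 for Lamp3, 3.27 for Sftpb and 1.47 for Ager. It was 8.54 for Nkx2-1, whose value depends on the prior count because female WT had 0 counts. None passed edgeR's quasi-likelihood test after adjustment.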

How the results depend on the processing

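All values here are counts of calls at an adjusted p under 0.05 or log2 changes of KO minus WT. By DESeq2 the calls were 481 in males, 144 in females, 362 for the sex difference and 141 over both sexes, against 0 each by edgeR, with 3 lung genes in males and 2 for the sex difference. DESeq2 without male WT 1, chosen after seeing the data, gave 552, 182, 852 and 45 calls, with 1 lung gene in females and 1 for the sex difference, and without female KO 2 it gave 383, 25, 228 and 63, with 1 lung gene in males. Without a filter on low counts edgeR called 39 genes in males and 1 for the sex difference. Leaving out 1 library at a time gave 0 to 33 calls in females and 0 to 9 for the sex difference, both highest without female WT 2, and 0 elsewhere.

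Differences of replicate 1 minus replicate 2 correlated across genes at -0.531 between male KO and female KO. The correlation was -0.359 between male WT and female WT, and -0.144 to 0.178 for the other pairs of groups. The replicate numbers thus did not pair the samples in the same order, and within a genotype the sexes varied together with the numbers crossed. With the replicate block 0 genes were called in each comparison. With the female KO numbers crossed, the block gave 2 calls in females, 1 for the sex difference and 1 over both sexes.

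Signs turned for 5 genes over both sexes and for 1 gene in each sex, and the cause was not tested. In females Sftpd was at -0.04 by limma voom, -1.92 by DESeq2 without female KO 2 and -2.61 without male WT 1 and female KO 2. Over both sexes Nkx2-1 was at 0.39 by DESeq2, and DESeq2 without male WT 1 gave 1.20 for Sftpc, 0.47 for Sftpa1, 1.59 for Nkx2-1 and 0.09 for Ager. Without male WT 1 and female KO 2, Sftpc was at 0.29 and Ager at 0.02.
Leaving out 1 library at a time gave -2.65 to 0.17 for Scgb1a1 in males, -2.58 to 3.46 for Sftpd in females, -2.69 to 1.26 for Sftpc over both sexes, -1.42 to 1.14 for Nkx2-1 over both sexes, -2.52 to 0.09 for Sftpa1 over both sexes, -0.72 to 0.08 for Ager over both sexes, -1.59 to 0.77 for Scgb1a1 over both sexes.
The summed lung level on raw library totals (CPM) was 2.34 in male KO 1 and 1.78 in female WT 1. With mitochondrial genes left out it was 2.37 and 2.80 CPM in male KO, and 1.79 and 1.61 CPM in female WT. Thinning left 5 of the 8 genes tested. At these depths the WT libraries of females hold 0 to 11 counts of each lung gene other than Ager, which limits every fold there.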
